A study of Homo sapiens with 6 samples.

Results

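Transcripts of 10 proteins that liver secretes into blood plasma were followed in colorectal cancer cells: the fibrinogen chains FGA, FGB and FGG, the carriers ALB, AFP, TTR and TF, the apolipoproteins APOA1 and APOB, and the protease inhibitor SERPINA1. Members were all probe sets with a single gene symbol in the platform annotation that is among these names, which gave 25 probe sets of 10 genes among 54613 probe sets and 19777 genes with a symbol of their own. A probe set is a group of short probes for the same transcript, read out as 1 signal. The genes were chosen by their role as liver plasma proteins and by measured values, namely that M5 arrays of the comparison with SW480 had stood apart for some of them, so the values of that comparison are a description here and support nothing further.

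Total RNA was measured on Affymetrix U133 Plus 2.0 arrays in 2 populations of human cells grown in RPMI medium with serum. SW480 is an established colorectal cancer line and served as the parental population. M5 is a subpopulation of SW480 with raised ability to metastasise to liver, obtained by selection in an animal, and it was also cultured before RNA was taken. No gene was altered and no drug was given in either population, beyond the penicillin and streptomycin of the medium. The labels name 3 biological replicates of each population, without saying whether they were separate cultures or how many animals or clones M5 came from. The spread between arrays may therefore be technical.

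The 2% trimmed mean signal ran from 20.9 to 86.4 over the 6 arrays and was lowest on SW480 replicate 1 and M5 replicate 1, called the dimmer pair. The arrays were therefore brought to a common distribution by quantile normalisation. "Signal" below is this normalised value unless it is called deposited. Its median over all probe sets was 10.2 on the normalised scale, and its 75th percentile 43.6. No detection calls were used, so it is unknown which low signals lay above background. M5 replicates 2 and 3 correlated at r = 0.994 over the 3822 brightest probe sets, against 0.897 to 0.958 for the other pairs of arrays, so some differences are also given with these arrays averaged to 1 sample. An 18S ribosomal RNA control was high on M5 replicate 1 and on SW480 replicates 1 and 2, and low elsewhere. Of 12 markers of colorectal epithelium, 9 passed the filter on low signals described further on, and their signals ranged widely. EPCAM and the keratin gene KRT18 were bright in both populations, while KRT20, LGALS4, VIL1 and CEACAM5 had mean signals of 47.9, 27.9, 12.2 and 5.76 on SW480 and 34.2, 8.83, 10.4 and 12.7 on M5. EPCAM signal was 2559, 2176 and 2446 on SW480 replicates 1, 2 and 3 and 2923, 2408 and 2240 on M5 replicates 1, 2 and 3. All triplets of signals below are given in this replicate order.

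Hepatocytes make most plasma proteins. Fibrinogen is a clotting protein assembled from alpha, beta and gamma chains, which FGA, FGB and FGG encode next to each other on chromosome 4, and its synthesis is raised in the acute phase response through interleukin-6. Transthyretin, from TTR, carries thyroid hormone and retinol-binding protein. ALB and AFP are neighbouring relatives that encode albumin and its fetal counterpart alpha-fetoprotein, and TF encodes the iron carrier transferrin. APOA1 and APOB encode the main proteins of high- and low-density lipoproteins, and SERPINA1 encodes alpha-1-antitrypsin, an inhibitor of neutrophil elastase. Transcription of many of these genes in liver depends on FOXA and C/EBP factors, among others, and intestinal epithelium also makes apolipoproteins.

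FGB and FGG, on which the results turn, lie on each side of FGA. The brightest FGA probe set was also highest on M5 replicate 1, but its lowest array was M5 replicate 2. Apart from M5 replicate 1 its signals were at most 9.23, below the median of 10.2, so its pattern rests on low values. In GRCh38.p14, FGB spans chr4:154562980-154572807, FGA chr4:154583126-154590742 and FGG chr4:154604136-154612656. Their promoter windows are shown because the chains share a neighbourhood while their brightest probe sets differed in pattern over the arrays. Each sequence is from RefSeq, GRCh38.p14, and runs 5′ to 3′ on the gene's own strand from 250 bases before the start site, 300 bases in all. The windows are chr4:154562730-154563029 on the plus strand for FGB, chr4:154590693-154590992 on the minus strand for FGA and chr4:154612607-154612906 on the minus strand for FGG. Capitals mark matches to the motifs named after the sequences.
FGB: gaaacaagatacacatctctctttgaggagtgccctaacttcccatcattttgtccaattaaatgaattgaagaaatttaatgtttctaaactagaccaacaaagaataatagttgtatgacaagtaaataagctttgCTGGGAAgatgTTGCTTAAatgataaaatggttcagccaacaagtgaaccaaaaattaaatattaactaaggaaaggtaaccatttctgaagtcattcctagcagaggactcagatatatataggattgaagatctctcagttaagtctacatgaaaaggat
FGA: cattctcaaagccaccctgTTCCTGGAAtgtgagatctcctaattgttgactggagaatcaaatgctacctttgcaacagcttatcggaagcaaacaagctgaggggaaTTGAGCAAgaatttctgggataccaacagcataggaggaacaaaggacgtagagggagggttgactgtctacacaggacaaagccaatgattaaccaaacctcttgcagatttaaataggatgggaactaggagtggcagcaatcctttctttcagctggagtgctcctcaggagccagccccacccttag
FGG: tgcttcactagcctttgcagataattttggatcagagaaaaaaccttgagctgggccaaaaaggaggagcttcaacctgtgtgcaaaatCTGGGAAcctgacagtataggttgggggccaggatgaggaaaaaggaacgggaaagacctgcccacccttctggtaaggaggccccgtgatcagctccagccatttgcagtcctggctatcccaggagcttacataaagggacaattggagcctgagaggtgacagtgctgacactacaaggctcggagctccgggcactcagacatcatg

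In all, 4 motifs were searched on both strands: the C/EBP-type TTGCNNAA, the interleukin-6 response element CTGGGAA, the STAT-type TTCNNNGAA and the TATA box TATAAA. No matches overlapped in these windows. FGB held CTGGGAA from position -112 and a C/EBP-type match from -101, counted from the start site of the window shown. FGA held a STAT-type match from -231 and a C/EBP-type match from -141. FGG held only CTGGGAA, from -161. Among 35116 promoter windows of the same length, 10.5% held TTGCNNAA, 10.8% CTGGGAA and 7.66% TTCNNNGAA. TATAAA had no match in these 3 windows and occurred in 11.5% of all windows. A match is a description of letters and does not show a binding site. FGB had another window with a later start site, from which CTGGGAA and the C/EBP-type match began at -143 and -132. Among the other members, ALB, AFP and a single window of TF held a C/EBP-type match. AFP also held TATAAA, and SERPINA1 held no match. No window of TTR, APOA1 or APOB was used here.

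Of the fibrinogen chains, FGB and FGG stood higher on M5 arrays, by far the most on M5 replicate 1. FGG signal was 11.2, 3.58 and 4.38 on SW480 and 237.6, 19.1 and 13.3 on M5. The groups did not overlap, but the lower M5 arrays lay close above SW480 replicate 1. The log2 difference, M5 minus SW480 of log2(signal + 1.7), was 2.50 with a standard error (SE) of 0.89. FGB signal on its brighter probe set was 11, 3.22 and 1.67 on SW480 and 201.9, 23.8 and 9.33 on M5. M5 replicate 3 fell below SW480 replicate 1, so the groups overlapped for FGB. In the deposited signals, before normalisation, they did not: FGB was 6.2, 3.3 and 2.0 on SW480 and 99.5, 27.7 and 11.6 on M5. The trimmed mean of the deposited signals was 20.9 on SW480 replicate 1 and 67.1 on M5 replicate 3. The deposited separation of these arrays therefore cannot be told apart from array brightness. Deposited FGG signals were 6.3, 3.7 and 5.5 on SW480 and 116.5, 22.4 and 16.3 on M5. The log2 difference of FGB was 2.70 (SE 0.93). These are whole-culture RNA measurements, so more cells with a transcript and more transcript per cell cannot be told apart.

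FGA is the alpha chain gene between them. Its brightest probe set had signals of 2.37, 9.23 and 8.68 on SW480 and 37.2, 1.43 and 8.67 on M5, a log2 difference of 0.48 (SE 0.88). Only M5 replicate 1 stood above the SW480 arrays, and M5 replicate 2 was the lowest of all arrays. FGA probe set 205649_s_at did not overlap between the groups, but at the bottom of the scale: 0.483, 0.333 and 0.333 on SW480 and 0.583, 1.28 and 3.15 on M5. On 205650_s_at, with signals of at most 7.05, the groups overlapped, and neither passed the filter on low signals. The second FGB probe set, 216238_s_at, did not follow the first: it had 1.43, 9.45 and 4.70 on SW480 and 2.72, 5.90 and 8.92 on M5. Its signal on M5 replicate 1 was thus low where 204988_at was highest.

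TTR had the largest difference of the members. TTR signal on its only probe set was 5.17, 1.67 and 1.43 in SW480 and 195.7, 73.1 and 5.68 in M5, and the deposited signals were 3.0, 1.6 and 1.7 against 96.8, 85.0 and 7.2. M5 replicates 1 and 2 were far above every SW480 array, while M5 replicate 3 was just above SW480 replicate 1. The log2 difference was 3.52 (SE 0.97), and 8 of 32768 tested probe sets, TTR included, had a difference at least as large. M5 replicates 2 and 3, close on bright probe sets, differed by 3.34 on the log2 scale for TTR, a gap that 0.0275% of tested probe sets reached. For FGB, FGG and FGA the same pair differed by 1.21, 0.47 and -1.73. With these arrays averaged to 1 sample, the log2 differences were 4.03 (SE 0.84) for TTR, 3.30 (SE 0.95) for FGB and 3.12 (SE 0.91) for FGG.

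**Figure D1:**
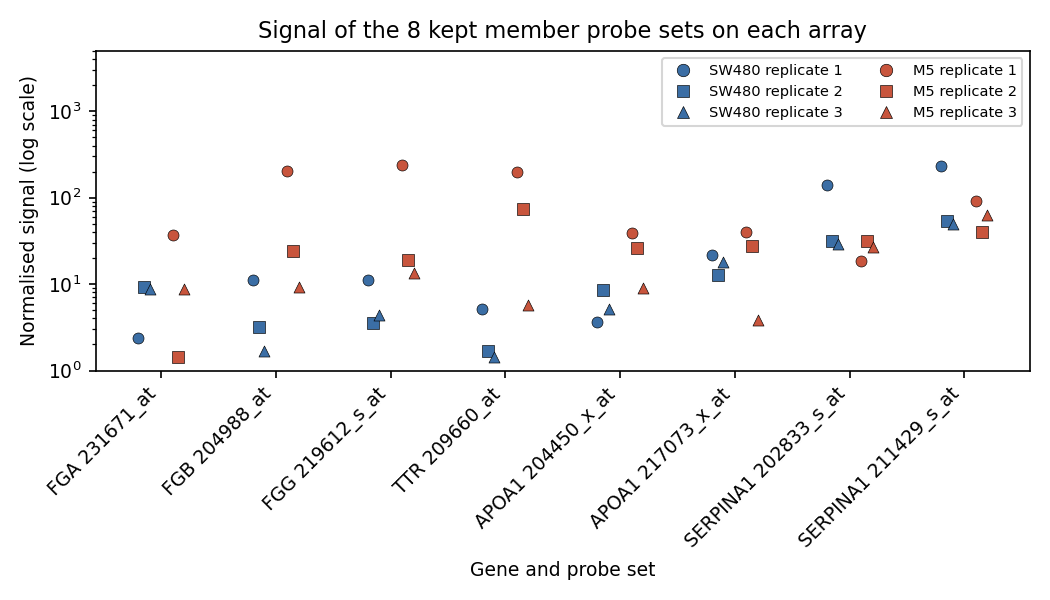
Normalised signal (vertical log axis, arbitrary units) of the 8 member probe sets kept for the test, by gene and probe set on the horizontal axis. Each point is 1 array, blue for SW480 and red for M5, with the shape giving the replicate; FGB, FGG and TTR reached 201.9, 237.6 and 195.7 on M5 replicate 1 and at most 11.2 on SW480 arrays.

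ALB, AFP and TF, the other carriers, had mean signals of at most 8.46 in either population, though single arrays lay above the median of 10.2. None of their 9 probe sets passed the filter, which removed the dimmest 40% by mean signal. ALB signals on 214842_s_at were 0.667, 3.85 and 1.60 on SW480 and 5.45, 8.62 and 4.64 on M5, the only ALB probe set without overlap between the groups. The highest ALB signal on any of its 4 probe sets was 17.1, on M5 replicate 1. AFP signals were 1.80, 2.90 and 8.43 on SW480 and 5.03, 7.60 and 3.38 on M5, and the groups overlapped. TF signals on 203400_s_at were 1.80, 0.983 and 6.90 on SW480 and 7.02, 7.60 and 3.22 on M5. The highest TF signal, 23.3 on 214064_at, was on an SW480 array.

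APOA1 gave different answers on its probe sets. On 217073_x_at, the brightest, signals were 21.9, 12.7 and 17.8 on SW480 and 40.2, 27.8 and 3.83 on M5, a log2 difference of 0.02 (SE 0.68). M5 replicate 3 was the lowest array there and M5 replicate 1 the highest. On 204450_x_at they were 3.60, 8.43 and 5.15 on SW480 and 39.4, 26.4 and 9.05 on M5, a log2 difference of 1.69 (SE 0.60) without overlap. The ending x_at is the array maker's mark for probes that can bind other transcripts. With both averaged the log2 difference was 0.85 (SE 0.59). APOB signals were at most 8.33 on either of its probe sets and the groups overlapped on both.

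SERPINA1 was the member whose kept probe sets stood lower in M5. On 211429_s_at signals were 235.1, 53.1 and 49.2 on SW480 and 91.9, 39.5 and 62.8 on M5, a log2 difference of -0.47 (SE 0.54). On 202833_s_at they were 140.0, 31.8 and 28.8 on SW480 and 18.4, 31.5 and 26.6 on M5, with a log2 difference of -0.98 (SE 0.54). SW480 replicate 1 was far above the other arrays on both probe sets, and the other 5 arrays overlapped. Without that array the SERPINA1 log2 difference was 0.25 (SE 0.37). Another probe set, 230318_at, was left out as low, and its signals of 2.55, 1.43 and 0.783 on SW480 and 7.28, 11.7 and 9.33 on M5 did not overlap.

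**Figure D2:**
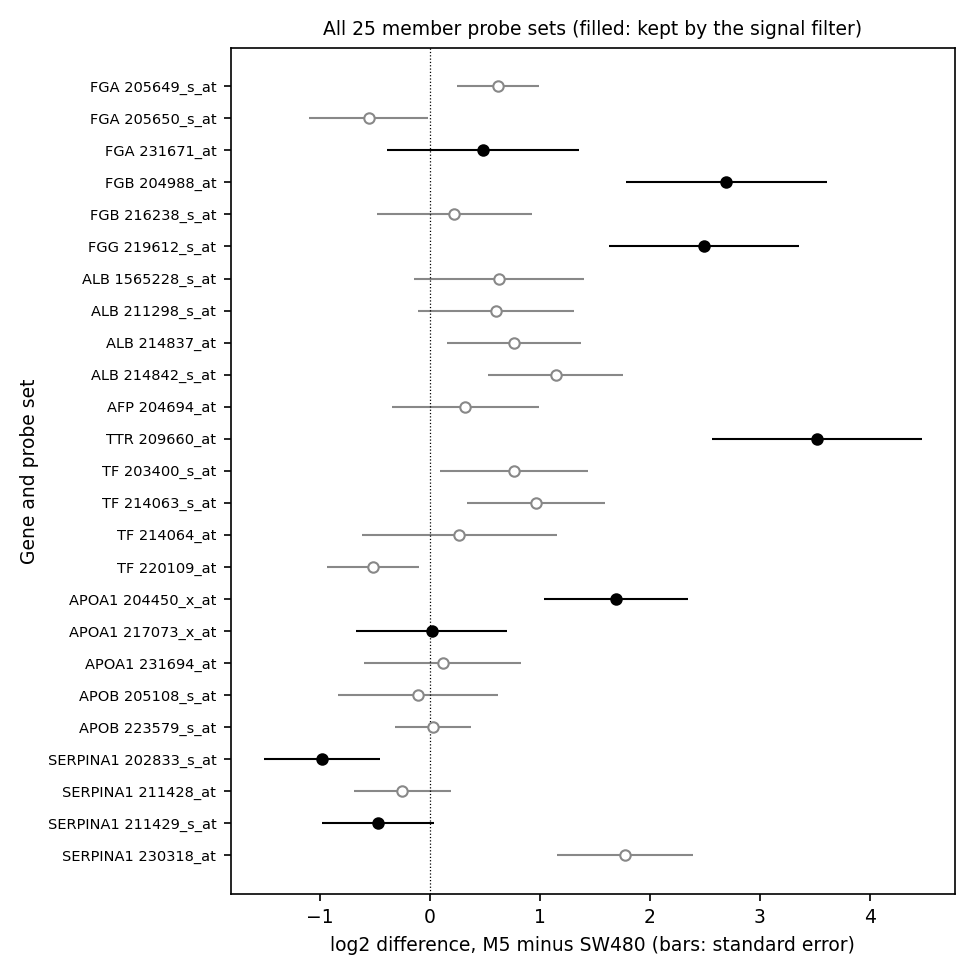
Difference in log2(signal + 1.7), M5 minus SW480 (horizontal axis), for all 25 member probe sets (vertical axis), with bars of 1 standard error from a fit without the signal filter. Filled points passed the filter; TTR, FGB and FGG have the largest differences, 3.52, 2.70 and 2.50, and the second FGB probe set, 216238_s_at, sits at 0.22.

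Over the whole table, 8 of 25 member probe sets, from 6 of 10 genes, passed the filter, and the brightest of these stood for its gene. Limma called 0 of these 6 genes higher and 0 lower at an adjusted p under 0.05, where 0.0562% of 14243 genes were called higher and 0.0421% lower. The lowest limma adjusted p among them was 0.307, for TTR. This background moved with the arrays used: with M5 replicate 1 left out limma called 89 genes higher and 121 lower, leaving out SW480 replicate 1 it called 80 and 35, and leaving out the dimmer pair 633 and 777. At an unadjusted p under 0.05, limma gave 3 of the 6 higher, namely FGB, FGG and TTR, and 0 lower, against 5.43% and 6.12% of all genes. The groups did not overlap, with M5 higher, for 2 of the 6 genes and for 6 of all 25 probe sets, against 7.74% of genes and 6.39% of probe sets. With M5 lower this held for 0 of the 6 genes and 0 of the 25 probe sets, against 8.36% and 6.68%. Nothing is read from these counts, since the genes were proposed from this comparison and a gene low in SW480 passes the filter only where M5 is high.

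The call on TTR turned on single choices. Without M5 replicate 3, the limma log2 difference of TTR was 4.87 (SE 0.62) with an adjusted p of 0.0443, and with no scaling between arrays it was 3.50 (SE 0.77) with an adjusted p of 0.0182. Over all 19 alternatives its limma adjusted p ran from 0.0182 to 0.829. Without M5 replicate 1, the log2 differences of FGB and FGG were 1.5 (SE 0.76) and 1.24 (SE 0.62), down from 2.70 and 2.50. On the dimmer pair alone they were 4.0 and 4.21, and TTR was at 4.85. On the 4 brighter arrays the differences of FGB, FGG and TTR were 2.04, 1.64 and 2.86. Among arrays with high 18S control they were 4.69, 4.86 and 5.36, and among those with low control 2.32, 1.54 and 2.91. FGA moved from 3.26 on the dimmer pair to -0.90 on the brighter arrays. In both splits the dim or high-control side holds a single M5 array, replicate 1, which is the highest for FGB, FGG and TTR, so array brightness, the 18S control and that array cannot be told apart.

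The pattern of FGG over the 6 arrays was closest to that of FGB among 14242 other genes. Closeness was the root mean square difference of log2 signals, each gene centred on its own mean, and it was 0.36 for FGB. The next were CP (0.58), which encodes the plasma copper protein ceruloplasmin, and SERPINC1 (0.68), which encodes the clotting inhibitor antithrombin. LINC02171, a long non-coding RNA gene (0.77), and USP43, a ubiquitin peptidase gene (0.79), followed. TTR ranked 13 (1.01) and FGA 671 (1.51). Genes closest to TTR were FGB (0.79), CP (0.85), LINC02171 (0.90), FGG (1.01) and USP43 (1.02). These ranks rest on 6 arrays, with M5 replicate 1 the highest for each of FGG, FGB, TTR, CP and SERPINC1. Over all tested probe sets, M5 replicate 1 was the highest of the M5 arrays for 39.3%, a share that leaves the SW480 arrays out of account. The members were chosen partly because M5 arrays had stood apart for some of them. Likeness among FGG, FGB and TTR on the same arrays was partly fixed by that choice and supports nothing further.

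CP and SERPINC1 are themselves liver secreted proteins and were in lists of related genes. These lists were also chosen with earlier results of these data known. CP signal was 18.8, 2.13 and 7.18 in SW480 and 277.9, 53.9 and 26.7 in M5, and the groups did not overlap. Its log2 difference was 3.10 (SE 0.80, limma adjusted p = 0.288). SERPINC1 signal was 15.3, 1.12 and 1.20 on SW480 and 83.7, 8.95 and 14.7 on M5, a log2 difference of 2.25 (SE 0.90, limma adjusted p = 0.444). SW480 replicate 1 lay above M5 replicates 2 and 3 there, so the groups overlapped.

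**Figure D3:**
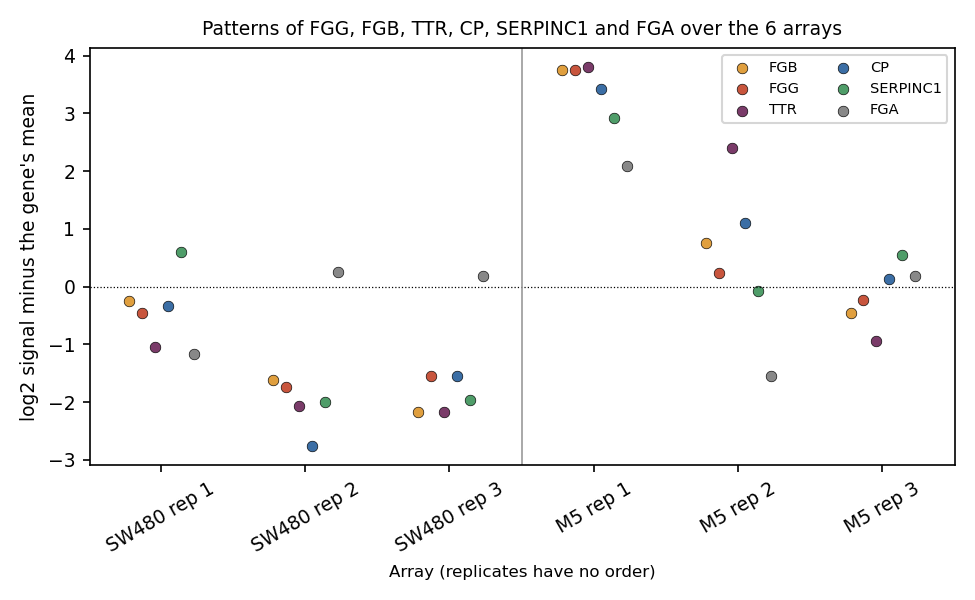
Log2 signal minus the gene's own mean (vertical axis) on each of the 6 arrays (horizontal axis, SW480 left of the grey line and M5 right) for FGG, FGB, TTR, CP, SERPINC1 and FGA. Each point is 1 gene on 1 array; all 6 genes are highest on M5 replicate 1, and FGA is lowest on M5 replicate 2.

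Besides the members, 81 other liver secreted genes were listed, of which 68 had a probe set and 33 passed the filter. Limma called 0 higher and 0 lower at an adjusted p under 0.05, against 0.0562% and 0.0421% of all genes. At an unadjusted p under 0.05, limma gave 6 of the 33 higher and 1 lower, against 5.43% and 6.12%. Nothing is read from these counts, since the list was chosen with earlier results known. The median log2 difference of the 33 genes was 0.41, against -0.01 over all 14243 genes tested. Nothing is read from this median or from those of the parts of the list either. Besides the choice of list, a gene low in SW480 passes the filter only where M5 is high. Among 11 coagulation genes the median was 0.10, with F12 at 0.39 (SE 0.31), PROS1 at -0.17 (SE 0.37) and FGL1, a fibrinogen-related secreted protein gene, at 1.12 (SE 0.55). Among 7 lipoprotein genes it was 0.62. APOC1 signal, of a small apolipoprotein, was 20.6, 12.3 and 36.9 on SW480 and 35.5, 101.7 and 132.1 on M5, a log2 difference of 1.81 (SE 0.51, limma adjusted p = 0.315). M5 replicate 1 was the lowest M5 array for APOC1, the reverse of FGB, FGG and TTR. PLTP, a phospholipid transfer protein gene, stood at 1.13 (SE 0.51) and APOE at 0.20 (SE 0.41).

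Among 12 acute phase and complement genes the median log2 difference was 0.47. C3, the central complement component, stood at 1.38 (SE 0.59) and HPX, which encodes the heme carrier hemopexin, at 1.37 (SE 0.58). SERPINA3, which encodes alpha-1-antichymotrypsin, stood at -1.73 (SE 0.57), with signals of 42.9, 27.1 and 171.3 on SW480 and 14.03, 16.6 and 19.6 on M5. Its groups did not overlap, and SW480 replicate 3 was far above the rest. ORM1, an orosomucoid gene, stood at 0.66 (SE 0.76) and CFB at -0.05 (SE 0.82). Of other carriers, AGT, TFR2 and RBP4 were kept. RBP4, which encodes the retinol carrier that binds transthyretin, had signals of 1.12, 9.53 and 3.60 on SW480 and 39.7, 7.43 and 2.92 on M5, and stood at 1.13 (SE 0.87). M5 replicate 1 was again the highest array, and the groups overlapped.

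Calls on CP and APOC1 appeared when the arrays were treated differently. Without the dimmer pair, limma gave adjusted p of 0.0205 for CP and 0.014 for APOC1. With array weights these were 0.017 and 0.0132. CP also passed with the dimmer pair as a block (limma adjusted p = 0.0372), and APOC1 passed without M5 replicate 1 (limma adjusted p = 0.0424). The directions of both were the same in these fits. More genes were called in them over the whole table. Without the dimmer pair 4.44% of all genes were higher and with array weights 3.13%, beside 2 of the 33 listed genes in each. The share was 0.218% with the dimmer pair as a block and 0.625% without M5 replicate 1, beside 1 of the 33 in each. Nothing is read from these counts, since the list was chosen with earlier results known. Without the dimmer pair or M5 replicate 1, the M5 side held only replicates 2 and 3, which correlated at r = 0.994 on bright probe sets. If these arrays are not independent samples, the limma adjusted p of those fits are too low.

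Transcription factor genes of the liver programme had a median log2 difference of -0.10. Of 21 listed transcription factor genes 16 had a probe set and 12 were kept. Of the 12, limma called 0 at an adjusted p under 0.05. Against 5.43% of all genes higher and 6.12% lower at an unadjusted p under 0.05, limma gave 0 higher and 1 lower. CEBPB, which encodes an acute phase C/EBP factor, was the latter, with signals of 841.0, 450.1 and 680.1 on SW480 and 534.5, 346.1 and 381.0 on M5 and a log2 difference of -0.62 (SE 0.25). The groups overlapped. ZBTB20, a repressor of AFP, stood at 0.40 (SE 0.19), with 256.5, 251.1 and 247.25 on SW480 and 371.8, 317.3 and 310.5 on M5. CEBPD stood at -0.33 (SE 0.32), CEBPA at 0.56 (SE 0.44) and ZHX2 at 0.21 (SE 0.38). FOXA3 was at 0.01 (SE 0.38) and GATA6 at -0.52 (SE 0.37). The groups did not overlap, with M5 higher, for 2 of the 12 genes, ZBTB20 and NR5A2 (0.67, SE 0.54), against 7.74% of all genes. With M5 lower this held for 0, against 8.36%.

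All 8 listed genes of interleukin-6 signalling were kept, and limma called 0 of them. Against 5.43% of all genes higher and 6.12% lower at an unadjusted p under 0.05, limma gave 0 higher and 1 lower. IL6ST, the shared signalling receptor chain, was that gene, with signals of 219.6, 284.7 and 269.1 on SW480 and 172.8, 183.1 and 169.2 on M5. The M5 arrays all lay below the SW480 arrays, a log2 difference of -0.55 (SE 0.21, limma adjusted p = 0.43). STAT3, its transcription factor, stood at -0.03 (SE 0.21), JAK1, the kinase, at -0.11 (SE 0.19), and SOCS3, a feedback inhibitor, at 0.33 (SE 0.37). Receptors of the secreted proteins were a further list. Of its 7 kept genes limma called 0. At an unadjusted p under 0.05, 0 passed, against 5.43% of all genes higher and 6.12% lower. TFRC, the transferrin receptor gene, stood at -0.58 (SE 0.31) and SCARB1, a receptor for high-density lipoprotein, at -0.50 (SE 0.23).

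**Figure D4:**
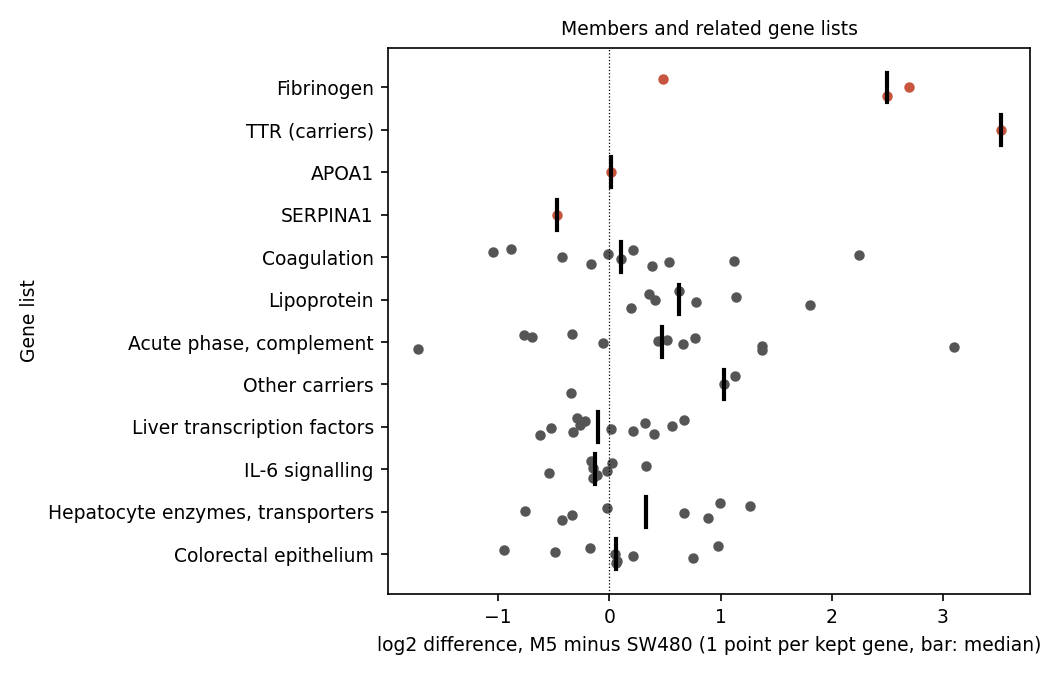
Log2 difference, M5 minus SW480 (horizontal axis), of each kept gene, by list (vertical axis); members are red, other genes grey, and black bars are medians. FGB, FGG and TTR lie at 2.70, 2.50 and 3.52, while the medians of liver transcription factors and interleukin-6 signalling genes are -0.10 and -0.13.

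Hepatocyte markers that are not secreted were enzymes and transporters of liver metabolism. Of 22 such genes 18 had a probe set and 8 were kept, and limma called 0. At an unadjusted p under 0.05, 0 passed, against 5.43% of all genes higher and 6.12% lower. The signals of all 18, summed over the brightest probe set of each, came to 209.0 to 254.5 on SW480 arrays and 155.8 to 331.8 on M5 arrays, with the highest sum on M5 replicate 1. CPS1, a urea cycle enzyme gene, stood at -0.42 (SE 0.36) and CYP2E1, a cytochrome P450 gene, at 0.89 (SE 0.58). The same sum for the 10 members was 96.6 to 320.0 on SW480 and 116.5 to 840.5 on M5. It also peaked on M5 replicate 1, and the part of other cells in these results was not tested. Summed markers were 247.3 to 382.6 on SW480 and 193.0 to 264.2 on M5 for 10 fibroblast genes, and 82.0 to 105.7 and 122.0 to 150.8 for 8 endothelial genes. They were 47.5 to 167.9 on SW480 and 124.7 to 251.5 on M5 for 9 leukocyte genes, and 34.5 to 50.8 and 37.3 to 80.9 for 3 erythroid genes. None of the genes in these hepatocyte and other cell type lists was listed at 0 on any array. In the fibroblast, endothelial, leukocyte and erythroid lists, 7, 4, 6 and 2 genes were kept and limma called 0. At an unadjusted p under 0.05, limma gave 2 higher and 1 lower, against 5.43% and 6.12% of all genes. The highest erythroid sum was on M5 replicate 1, the highest endothelial sum on M5 replicate 2, the highest leukocyte sum on M5 replicate 3 and the highest fibroblast sum on SW480 replicate 1. LYZ, the lysozyme gene, made up most of the leukocyte sum on M5 replicates 2 and 3, with signals of 73.5, 1.22 and 23.5 on SW480 and 63.9, 146.7 and 161.4 on M5. The genes past the unadjusted threshold were LYZ (log2 difference 2.72, SE 0.91), the endothelial adhesion gene ESAM (1.60, SE 0.70) and the collagen gene COL3A1 (-1.31, SE 0.33).

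Neighbours of the members on the chromosome were measured on the same arrays. Next to the fibrinogen genes, PLRG1, which encodes a splicing factor, had signals of 483.6, 545.9 and 453.5 on SW480 and 509.2, 411.5 and 453.1 on M5. LRAT, a retinol esterification enzyme gene on the other side, had 14.4, 7.05 and 8.77 on SW480 and 13.7, 10.98 and 20.8 on M5. Both overlapped between the populations. Beside TTR, at chr18:31591877-31598821, the desmosomal cadherin gene DSG2 stood at 0.34 (SE 0.19), with signals of 1144, 760.1 and 1119 on SW480 and 1428, 1190.5 and 1169 on M5. Its groups did not overlap, with M5 higher, which held for 7.74% of all genes. B4GALT6, a glycosphingolipid enzyme gene on its other side, stood at -1.21 (SE 0.40), with signals of 40.4, 60.6 and 120.6 on SW480 and 33.4, 23.3 and 27.7 on M5. Its groups did not overlap either, with M5 lower, which held for 8.36% of all genes. In the apolipoprotein cluster around APOA1, at chr11:116835751-116837622, APOA4 had 3.95, 7.92 and 6.70 on SW480 and 17.7, 18.2 and 0.80 on M5. M5 replicate 3 was its lowest array, as on the brightest APOA1 probe set, but at a signal below the 1.7 added before taking logs. On APOA1 probe set 204450_x_at, M5 replicate 3 had 9.05, above every SW480 array. APOA5 and APOC3, also in the cluster, were left out as low. Beside SERPINA1, SERPINA10, a related inhibitor gene, stood at -1.21 (SE 0.68) and SERPINA9 at 0.21 (SE 0.59).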

How the data were processed

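Biotin-labelled RNA of 3 SW480 and 3 M5 samples was hybridised to 1 array each. The deposited table holds linear intensities of probe sets, made with GCOS 1.4 per the submitters' processing notes; its settings and any scaling target are not stated in what was used here. Of 54675 probe sets, 62 controls were left out of the tests. Symbols come from the platform annotation of the array, where 41091 probe sets have 1 symbol, 1801 several and 11721 none; 41037 of the 41091 matched RefSeq of GRCh38.p14 by gene ID. Intensities were quantile normalised, and log2(signal + 1.7), with the 20th percentile of deposited values as pseudocount, was tested for 32768 probe sets after the dimmest 40% by mean signal were left out. Fold changes on this scale understate differences of low signals. Limma 3.58.1 in R 4.3.3 (lmFit, eBayes with intensity trend) gave two-sided p-values with Benjamini-Hochberg adjustment over all tested probe sets; the code was tested on simulated data. No detection calls were used, and precision is limited by how few arrays there are. The members, lists and alternatives were chosen with earlier results of these data known. All members are named, then the brightest genes of each list, genes past a threshold, neighbours in RefSeq order and the 5 most similar patterns. The transcription factor genes CEBPA and NR5A2 are named in addition. Some listed genes are not analysed here. Figures used matplotlib 3.10.9.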

Additional observations from a re-analysis of the deposited data

How the results depend on the processing

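Alternatives changed the scaling, pseudocount, filter, variance model, probe set per gene, block or arrays, 1 at a time. The counts of member genes called were 0 higher and 0 lower, except that no scaling between arrays gave 1 higher (TTR). That setting called 0.0422% of all genes higher, on arrays whose trimmed means ran from 20.9 to 86.4. Leaving out 1 array in turn gave 0 to 1 member genes higher and 0 to 1 other liver secreted genes higher. The member was TTR without M5 replicate 3, the M5 array where TTR was lowest, with 0.014% of all genes higher. The other gene was APOC1 without M5 replicate 1, with 0.625% of all genes higher. Other liver secreted genes higher were also 2 without the 2 dimmest arrays, 2 with array weights (APOC1 and CP in both) and 1 with the dim array block (CP). No alternative called an other liver secreted gene lower or a liver transcription factor gene. The replicate block called 0 member genes, with limma log2 differences of 3.52 (SE 0.70) for TTR, 2.70 (SE 0.55) for FGB and 2.50 (SE 0.58) for FGG and a lowest adjusted p of 0.158. Arrays of equal number 1, 2 and 3 had deviations from their group means with r of 0.11, 0.02 and 0.07. These deviations alone gave no clear pairing. On the 3822 brightest probe sets, however, SW480 replicate 1 and M5 replicate 1, the dimmer pair, correlated at r = 0.955. SW480 replicate 1 reached 0.911 with each other SW480 array, and M5 replicate 1 reached 0.935 and 0.933 with M5 replicates 2 and 3. The dimmer arrays were thus closer to each other than to their own groups. FGB and TTR kept their direction in 19 of 19 alternatives and FGG in 20 of 20, with ranges of 1.5 to 3.60, 2.50 to 4.87 and 1.24 to 3.24. The direction of FGA held in 16 of 19, of APOA1 in 13 of 20 and of SERPINA1 in 19 of 20. These fits reuse the same arrays, and the genes were proposed from this comparison, so a kept direction supports nothing further. FGB was read on 204988_at throughout, and the dimmer 216238_s_at, with a log2 difference of 0.22, never stood for the gene. The stricter filter, which left out 60% of probe sets, left 3 of the 6 member genes, so the others have no value there. Genes called by limma over the whole table, 8 higher and 6 lower, became 0 and 0 without the intensity trend, 633 and 777 without the 2 dimmest arrays, 446 and 591 with array weights and 31 and 17 with the dim array block, and ran from 0 to 89 higher and 2 to 121 lower when 1 array was left out. Apart from fewer arrays or probe sets, the cause was not tested. Without detection calls, signals near the pseudocount set no firm fold.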
